A study of Mus musculus with 23 samples.

Results

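The 10 Toll-like receptor genes described here, Tlr1 to Tlr9 and Tlr13, were followed in RNA of microglia, the macrophages that live in brain tissue, from female C57BL/6 mice. They were chosen by symbol from the 53090 genes of the deposited tables, and all 10 of 10 passed the low-count filter that left 18720 genes. The 23 libraries fell into 4 groups: 7 were from young mice, 3 from young mice with repopulated microglia, 5 from old mice and 8 from old mice with repopulated microglia. Repopulated microglia are those that refill the brain after the drug PLX5622, an inhibitor of the survival receptor CSF1R given in chow at 1200 ppm, has removed the resident cells. Treatment controls ate the AIN-76A chow lacking the drug. The labels state no ages, no length of treatment or recovery and no pooling of animals, and where a library's source is not named a p-value measures the spread between libraries, which may in part be technical. The growth text describes CD11b magnetic selection followed by culture, whereas the RNA text names cells sorted by flow cytometry.

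Toll-like receptors are membrane proteins of innate immunity whose outer part binds microbial or host molecules and whose inner TIR domain recruits adaptor proteins. Tlr1, Tlr2, Tlr4, Tlr5 and Tlr6 work mainly at the cell surface, where they sense lipoproteins, lipopolysaccharide and flagellin, while Tlr3, Tlr7, Tlr8, Tlr9 and Tlr13 sense nucleic acids in endosomes. Signals through the adaptors Myd88 and Ticam1 activate NF-kappa B and interferon regulatory factors, and microglia carry most of these receptors.

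Total expected counts were 43.66 to 58.19 M a library, with M standing for 1e+06. The sample titles number the libraries, and numbers 1 to 11 (3 young, 2 old, 5 old repopulated) and 12 to 24 (4 young, 3 young repopulated, 3 old, 3 old repopulated) were also fitted apart. Genes with a count numbered 16437 to 19983 a library in 1 to 11 and 17637 to 22317 in 12 to 24. All 9 of 9 microglia markers were detected in every library. Their summed level, in TMM-scaled counts per M of counts (CPM), was 25519 to 31360 in young, 22561 to 26213 in young repopulated, 10196 to 26056 in old and 9685 to 29243 in old repopulated libraries. All 7 of 7 border-associated macrophage markers were also detected in every library, at sums of 58.2 to 223, 295 to 411, 182 to 878 and 70.3 to 1235 CPM in the same order. Of 10 monocyte and neutrophil markers, 9 or 10 were detected, at 27.9 to 304, 115 to 357, 232 to 2250 and 132 to 3057 CPM, with Ly6g at 0 in 6 libraries. Dendritic cell markers (4 to 6 of 6 detected) summed to 5.11 to 11.5, 14.6 to 31.2, 12.03 to 139.9 and 9.27 to 91.5 CPM, with Cd209a and Xcr1 at 0 in 2 libraries each and Clec9a in 1. Astrocyte markers (3 or 4 of 4 detected, Aqp4 at 0 in 1 library) summed to 81.0 to 175, 74.1 to 104, 53.2 to 123 and 7.14 to 104 CPM. In such bulk libraries fewer cells of a type and less RNA per cell cannot be told apart.

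Per length, the receptors spanned a wide range, and the same 3 led in every group. In young libraries the median of the deposited TPM (transcripts per M) was 653 for Tlr2, 269.51 for Tlr7 and 147 for Tlr13, and the library ranges of these 3 did not overlap. Tlr1 followed at 49.96, then Tlr3 at 48.9, Tlr9 at 38.2, Tlr4 at 25.5 and Tlr6 at 21.9, each with a range that overlapped its neighbour's in this order. Tlr5 and Tlr8 were lowest at 3.06 and 2.96 TPM. The first 4 places were the same in all groups. Tlr8 stood 8 of 10 by its median in young repopulated (19.7 TPM) and old (23.8) and 5 of 10 in old repopulated libraries (29.6), and in these 3 groups Tlr5 was last. In old libraries Tlr9 (39.8 TPM) stood before Tlr3 (38.98), an order that turned when computed from CPM per kilobase of effective length, and in old repopulated libraries Tlr4 (27.2) and Tlr9 (27.0) came before Tlr3 (20.3), all with overlapping ranges.

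**Figure D1:**
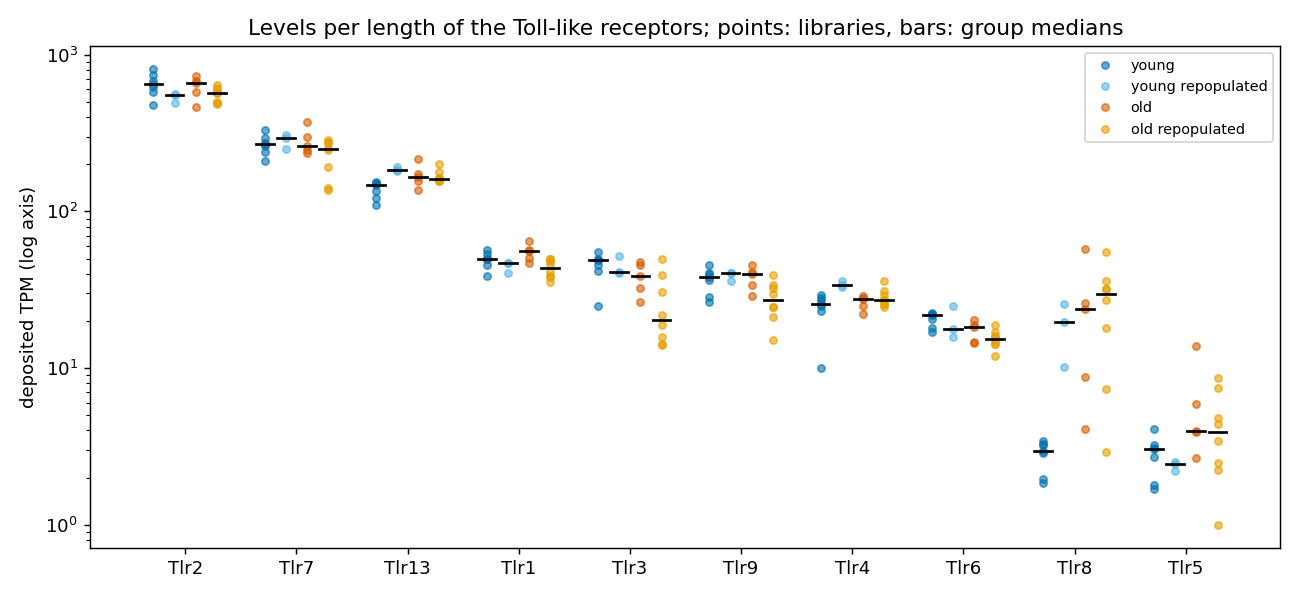
Deposited TPM of each receptor on a log axis, with 1 point per library, colours for the 4 groups and bars at group medians. Tlr2, Tlr7 and Tlr13 lead in each group, and Tlr8 runs from 1.84 to 57.6 TPM over the libraries.

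Tlr8, an endosomal receptor of the Tlr7 subfamily, had the largest differences of the 10 receptors in each comparison with young libraries and in the interaction. Its gene (ENSMUSG00000040522.5) is protein-coding and lies on the minus strand of chromosome X at 167242696 to 167264329 in GRCm38. It was measured at 3.40 to 5.55 CPM in young libraries (median 4.71). The young repopulated libraries had 37.2, 42.0 and 19.2 CPM. The old libraries, numbers 4, 6, 16, 17 and 18, had 7.52, 39.2, 101, 15.6 and 46.0 CPM, and the old repopulated libraries ran from 5.43 to 107 CPM (median 56.3). Every old and every young repopulated library was above every young one, and 1 old repopulated library, number 7 at 5.43 CPM, fell within the young range.

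The fitted change of Tlr8 was 3.22 ± 0.56 (log2, SE) between old and young libraries, a 9.30-fold difference (edgeR adjusted p 0.00423). In young repopulated versus young it was 2.86 ± 0.60 (SE, edgeR adjusted p 0.0189), a 7.27-fold difference, and the call was lost without young repopulated replicate 1 (2.76, edgeR adjusted p 0.0939) and without replicate 2 (2.68, edgeR adjusted p 0.107). Between old repopulated and young libraries, which differ in both age and repopulation, it was 3.47 ± 0.53 (SE, edgeR adjusted p 0.000448). The old call and the old repopulated call held in all 23 fits that left out 1 library. Within library numbers 12 to 24 all 3 were called, and within 1 to 11 neither of the comparisons that could be fitted there was, at 2.58 for old and 3.50 for old repopulated versus young, with edgeR adjusted p of 1 and 0.337.

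Old repopulated and old libraries differed in Tlr8 by 0.25 ± 0.52 (log2, SE; edgeR adjusted p 0.945), with a 95% interval of -0.77 to 1.28. The sign turned in fits lacking old replicate 1 (-0.0241) or old repopulated replicate 2 (-0.00471). The interaction, the step from resident to repopulated cells in old mice minus the same step in young ones, was -2.61 ± 0.79 (log2, SE), with an unadjusted p of 0.00322 and an edgeR adjusted p of 0.423. Within library numbers 12 to 24 it was -2.59 with an edgeR adjusted p of 0.0335.

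**Figure D2:**
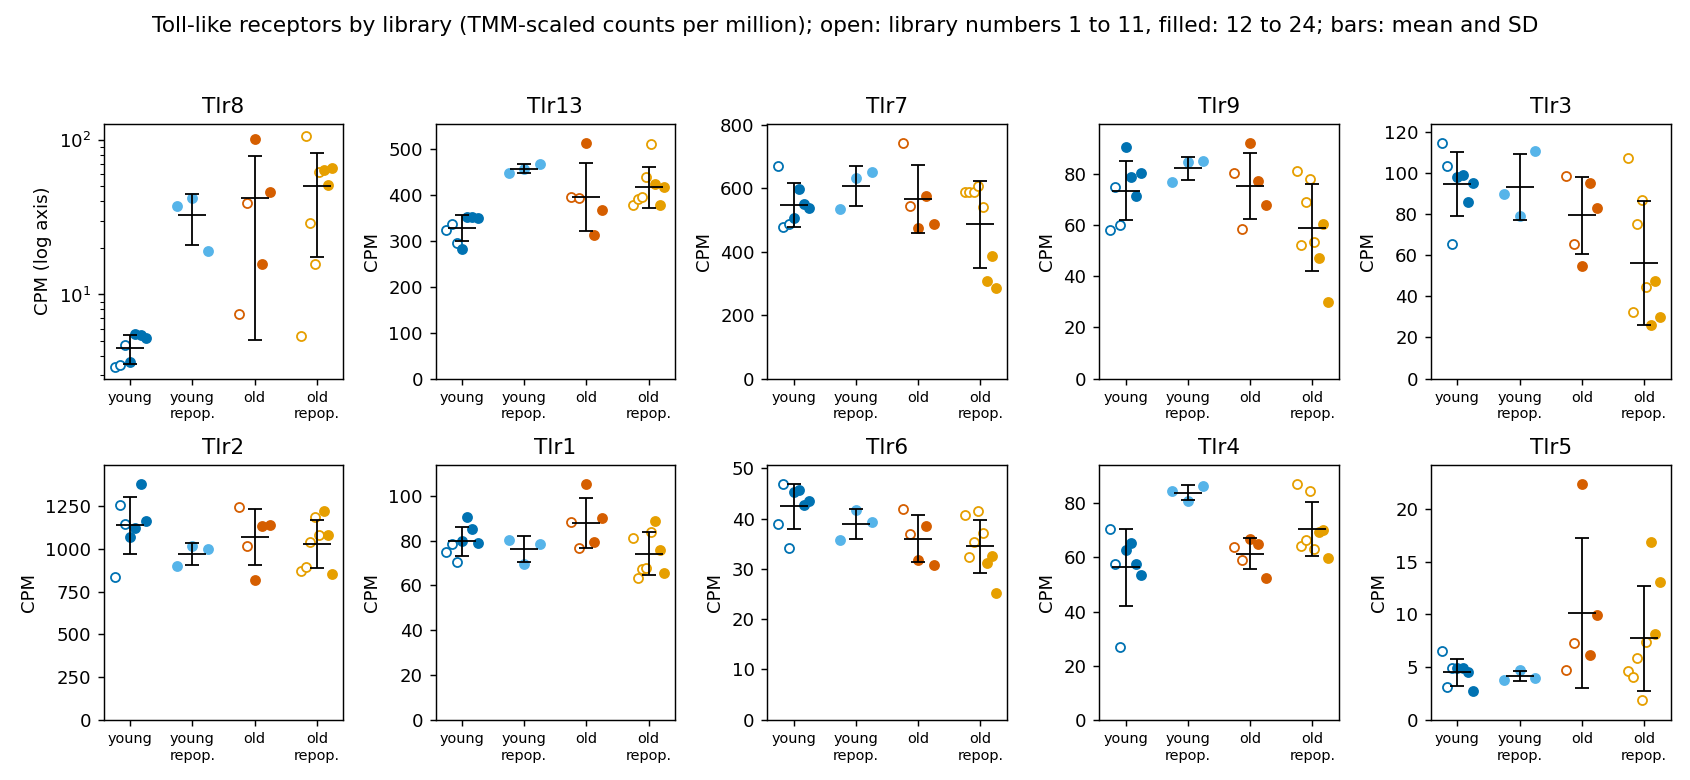
CPM of the 10 receptors in each library by group, with the mean and SD; open points are library numbers 1 to 11, filled points 12 to 24, and the Tlr8 axis is a log axis. All 7 young libraries lie at or below 5.55 CPM for Tlr8, and the Tlr13 points of both repopulated groups lie above all young ones.

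Tlr8 rose or fell with most of the marker sums. Over the 23 libraries, which share their depth and cell makeup with each marker sum, the rank correlation of Tlr8 was 0.93 with border-associated macrophage markers, 0.87 with dendritic cell markers, 0.81 with monocyte and neutrophil markers and -0.89 with microglia markers, given as a description. It was also 0.74 with oligodendrocyte, -0.85 with B cell, -0.85 with astrocyte and -0.76 with neuron markers. With T and NK cell and endothelium markers it was 0.19 and -0.17. The old library with the highest Tlr8, replicate 3 at 101 CPM, had border-associated and monocyte sums of 878 and 2250 CPM, and old repopulated replicate 1 at 5.43 CPM had 70.3 and 132. Young replicate 3 had 223 and 304 CPM of these markers with Tlr8 at 4.71 CPM. Old repopulated replicate 2, at 107 CPM the highest for Tlr8, had 810 CPM of border-associated and 299 of monocyte markers. The part of these cells in the Tlr8 differences was not tested.

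**Figure D3:**
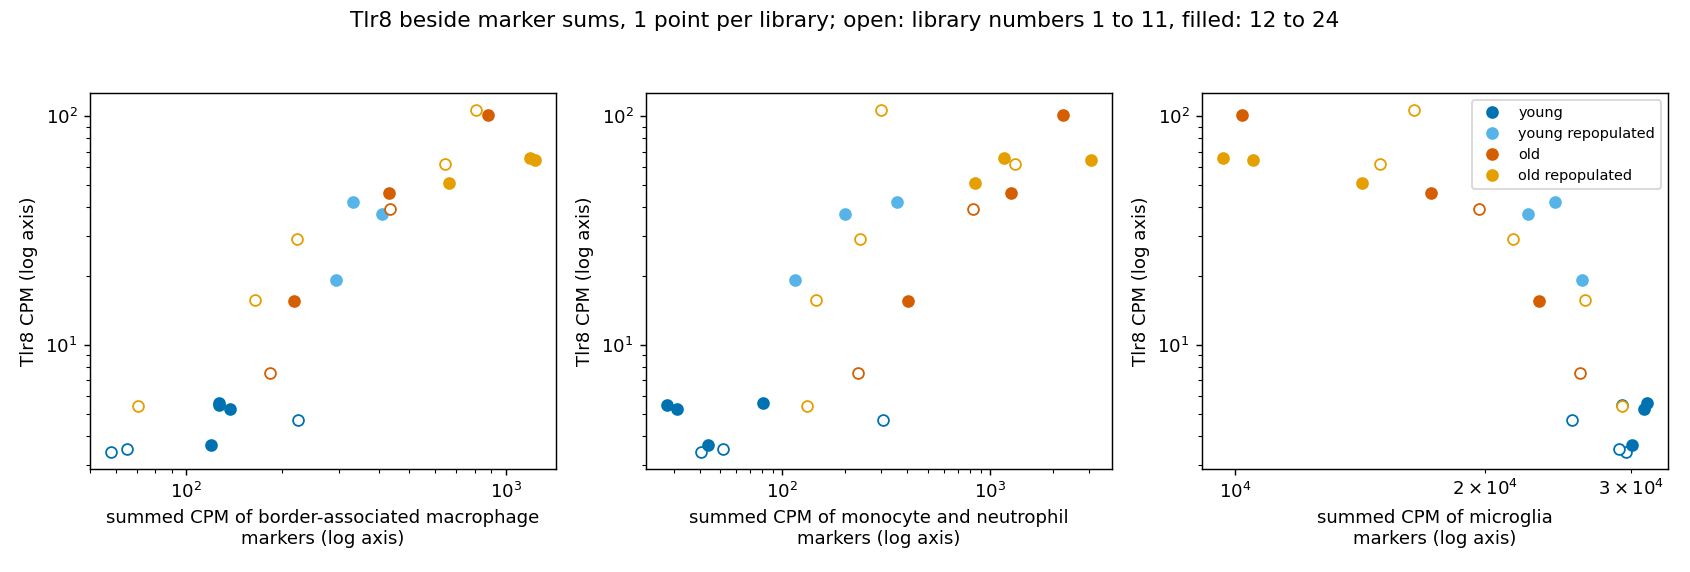
Tlr8 CPM against the summed CPM of border-associated macrophage, monocyte and neutrophil, and microglia markers, 1 point per library on log axes, with open points for library numbers 1 to 11. Tlr8 is higher where the first 2 sums are higher and lower where the microglia sum is higher, and young replicate 3 sits at 223 and 304 CPM with Tlr8 at 4.71 CPM.

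The 3 genes whose levels ranked most like Tlr8 over the 23 libraries were Itsn1 (rank correlation 0.96), a scaffold protein of endocytosis, Clec12a (0.96), an inhibitory lectin receptor of myeloid cells, and Itga4 (0.96), an integrin subunit of circulating leukocytes. The promoters of Tlr8 and Tlr13, the receptors that were higher in both repopulated groups than in young libraries, are printed because these members were called together. They are RefSeq sequences of build GRCm38.p6, 250 bases before to 50 after the start, written 5′ to 3′ in the gene's direction, with capitals for matches to the motifs searched. The Tlr8 promoter is at chrX:167264280-167264579 on the minus strand and the Tlr13 promoter at chrX:106143025-106143324 on the plus strand.
Tlr8: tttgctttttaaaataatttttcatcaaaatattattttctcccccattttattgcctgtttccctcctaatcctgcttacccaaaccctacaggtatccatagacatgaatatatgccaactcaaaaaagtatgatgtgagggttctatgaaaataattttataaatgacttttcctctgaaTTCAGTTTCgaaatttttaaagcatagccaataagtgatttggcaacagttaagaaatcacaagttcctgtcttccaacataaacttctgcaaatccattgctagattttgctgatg
Tlr13: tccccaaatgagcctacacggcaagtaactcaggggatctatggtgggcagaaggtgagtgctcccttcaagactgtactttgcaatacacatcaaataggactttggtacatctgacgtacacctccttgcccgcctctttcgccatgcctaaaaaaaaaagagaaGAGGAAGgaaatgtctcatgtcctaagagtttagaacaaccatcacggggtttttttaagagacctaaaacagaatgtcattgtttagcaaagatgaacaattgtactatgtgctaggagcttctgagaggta
Both strands were searched for GAGGAAG, a core bound by the macrophage transcription factor Spi1, for GAAANNGAA, a core of interferon response elements, and for GGGANTTCC, a core of NF-kappa B sites. Tlr8 held GAAANNGAA on the other strand, where the capitals are its reverse complement, and Tlr13 held GAGGAAG. Neither was particular to this pair, since a Tlr6 promoter also held GAAANNGAA and promoters of Tlr1 and Tlr9 held GAGGAAG. Of 32851 promoters of this length, 8.56% held GAAANNGAA, 13.6% GAGGAAG and 1.68% GGGANTTCC, and a match is a description of letters. Of the 10 receptors, 8 had a promoter entry, and the Tlr2 promoter was the holder of GGGANTTCC among them.

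Tlr13, which senses bacterial ribosomal RNA and is a major receptor of this kind in rodents, was higher in both repopulated groups than in young libraries by a small step. Its identifier was ENSMUSG00000033777.3, whose version differs from that in GENCODE M21. The young libraries ran from 283 to 352 CPM (median 337), and the young repopulated ones had 449, 456 and 468 CPM. The old libraries, numbers 4, 6, 16, 17 and 18, had 396, 394, 514, 313 and 367 CPM, and the old repopulated ones ran from 378 to 512 CPM (median 406). No library of either repopulated group overlapped the young range, while the old group did.

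The change of Tlr13 was 0.35 ± 0.09 (log2, SE) between old repopulated and young libraries (edgeR adjusted p 0.0123), and it was called in all 23 fits without 1 library. It was not called within library numbers 1 to 11 (0.41, edgeR adjusted p 0.373) or 12 to 24 (0.29, edgeR adjusted p 0.107). In young repopulated versus young the change was 0.48 ± 0.12 (SE, edgeR adjusted p 0.0402). The call disappeared in 11 of 23 fits, which were those without any of the 7 young or 3 young repopulated libraries and without old replicate 5, at 0.45 to 0.52 with edgeR adjusted p of 0.0502 to 0.163. Old and young libraries differed by 0.28 ± 0.10 (SE, edgeR adjusted p 0.164), and old repopulated and old ones by 0.07 ± 0.10 (SE, edgeR adjusted p 0.897). The interaction was -0.41 ± 0.15 (log2, SE), with an unadjusted p of 0.0137 and an edgeR adjusted p of 0.505. The genes ranked most like Tlr13 were Pacsin2 (0.88), Epg5 (0.85) and Pacs2 (0.84). Its rank correlation was 0.61 with border-associated macrophage, 0.62 with dendritic cell, 0.57 with oligodendrocyte and 0.49 with monocyte and neutrophil markers. With B cell, microglia, astrocyte and neuron markers it was -0.71, -0.56, -0.46 and -0.38, and with T and NK cell and endothelium markers 0.27 and -0.17.

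Tlr3, which binds double-stranded RNA and signals through Ticam1, was lower in old repopulated than in young libraries. Its gene (ENSMUSG00000031639.12) lies on the minus strand of chromosome 8 at 45395665 to 45411080. The young libraries ran from 65.3 to 115 CPM (median 98.1), and the young repopulated ones had 89.4, 78.9 and 111 CPM. The old libraries had 98.4, 65.6, 54.7, 94.8 and 82.6 CPM in order of library number. The old repopulated libraries ran from 25.8 to 107 CPM (median 46.0), so that 5 of them lay below the lowest young library and 3 within the young range. The change was -0.75 ± 0.25 (log2, SE; edgeR adjusted p 0.0439), and the call was lost in 15 of 23 fits without 1 library, at -0.64 to -0.77 with edgeR adjusted p of 0.0511 to 0.085. Those 15 left out any young library but replicate 3, any young repopulated library, old replicate 5, or old repopulated replicates 2, 5, 6, 7 or 8. It was also lost with only both groups in the fit (edgeR adjusted p 0.0764).

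Tlr7 was lower in old repopulated libraries 19, 20 and 21 than in all other libraries. Tlr3 was at 25.8, 47.6 and 30.0 CPM in these 3, and also low in old repopulated libraries 8 (32.5 CPM) and 11 (44.4). Tlr7, the receptor for single-stranded RNA (ENSMUSG00000044583.13, chromosome X, 167304929 to 167330558, minus strand), had 308, 387 and 284 CPM there and 540 to 606 CPM in the old repopulated libraries numbered 7 to 11. The young libraries had 476 to 669 CPM of Tlr7 (median 538), the young repopulated ones 534, 632 and 651, and the old ones 743, 543, 475, 576 and 488. Tlr9, the receptor for unmethylated CpG DNA (ENSMUSG00000045322.10, chromosome 9, 106222598 to 106226883, plus strand), had 47.2, 60.7 and 29.9 CPM in libraries 19 to 21, of which number 20 lay within the ranges of the young and old libraries. Its levels were 52.4 to 81.3 CPM in old repopulated libraries 7 to 11, 58.0 to 90.6 in young, 76.8, 84.9 and 85.0 in young repopulated, and 80.6, 58.5, 92.3, 77.3 and 67.9 in old libraries. Tlr12, a profilin receptor outside the 10, had 3.47, 6.09 and 2.88 CPM in libraries 19 to 21 and 9.48 to 43.1 CPM in the other old repopulated ones.

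**Figure D4:**
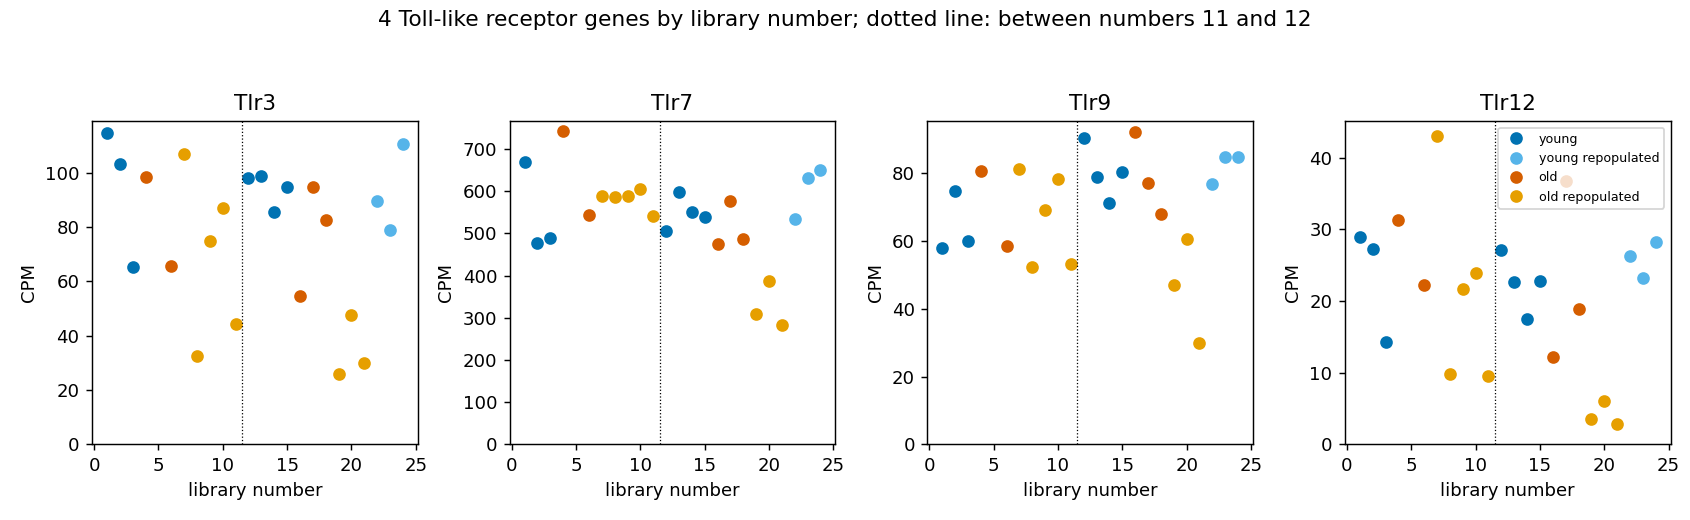
CPM of Tlr3, Tlr7, Tlr9 and Tlr12 against the library number in the sample titles, coloured by group, with a dotted line between numbers 11 and 12. Old repopulated libraries 19 to 21 have 284 to 387 CPM of Tlr7, below all other libraries, while Tlr3 is also low in old repopulated libraries 8 and 11.

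Over all libraries Tlr7 and Tlr9 were not called in old repopulated versus young, at -0.17 ± 0.15 and -0.32 ± 0.16 (log2, SE), with edgeR adjusted p of 0.502 and 0.178. Within library numbers 12 to 24 both were, at -0.74 ± 0.12 for Tlr7 (SE, edgeR adjusted p 0.000589) and -0.80 ± 0.19 for Tlr9 (SE, edgeR adjusted p 0.0047), beside Tlr3 at -1.45 ± 0.23 (SE, edgeR adjusted p 0.000406). Within numbers 1 to 11 they were 0.10 ± 0.15, 0.06 ± 0.18 and -0.44 ± 0.34 (log2, SE), with edgeR adjusted p of 0.86, 0.943 and 0.668. The difference between the runs was itself called for Tlr7, at -0.84 ± 0.19 (log2, SE; edgeR adjusted p 0.0391), a test chosen after the data were seen, which called 1.39% of genes. For old versus young and old repopulated versus old the same test called 0% of genes and none of the 10 receptors. Over all genes 1770 and 1356 of 18720 had an unadjusted p under 0.05. Among the receptors Tlr7 and Tlr9 had one in old repopulated versus old (edgeR unadjusted p 0.0244 and 0.0267), and none did in old versus young. Libraries 19 to 21 had microglia marker sums of 9685 to 14247 CPM, border-associated sums of 665 to 1235 and monocyte and neutrophil sums of 846 to 3057 CPM, whose part in these values was not tested. Over all 23 libraries the rank correlation of Tlr3 was 0.83 with microglia and 0.91 with astrocyte markers, that of Tlr7 0.53 and 0.65, and that of Tlr9 0.49 and 0.50. With border-associated macrophage and with monocyte and neutrophil markers it was -0.85 and -0.77 for Tlr3. For Tlr7 these were -0.49 and -0.47, and for Tlr9 -0.42 and -0.38.

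Genes ranked most like these 3 receptors included Srgap2 (0.95), Clasp2 (0.95) and B4galt4 (0.95) for Tlr3, the ubiquitin ligase Peli2 (0.87) of Toll-like receptor signalling, Cep152 (0.86) and Ppp1r21 (0.86) for Tlr7, and Apba1 (0.82), Kdm3b (0.82) and Rnf216 (0.80), a ubiquitin ligase for Toll-like receptors, for Tlr9.

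Tlr2 and its partners Tlr1 and Tlr6 together sense bacterial lipoproteins. Over all libraries Tlr2 and Tlr1 were called in no comparison and Tlr6 in 1. Tlr2 (ENSMUSG00000027995.10, chromosome 3, 83836272 to 83841767, minus strand) was measured at 837 to 1381 CPM in young libraries (median 1144) and at 853 to 1224 in old repopulated ones (median 1060). The young repopulated libraries had 901, 1020 and 998 CPM and the old ones 1249, 1015, 817, 1136 and 1139. All group ranges overlapped, and no comparison called Tlr2, whose 95% interval in old versus young was -0.33 to 0.15 on the log2 scale. The genes ranked most like Tlr2 were Plek (0.83), Thbs2 (0.81) and S1pr1 (0.78).

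Tlr1 and Tlr6 are neighbours on the minus strand of chromosome 5, at 64924679 to 64933563 (ENSMUSG00000044827.10) and 64952031 to 64960097 (ENSMUSG00000051498.6), and share coding sequence, so that reads of 50 nt can fall to either. Of the 50-base stretches in their transcripts, 15.4% of those of Tlr1 and 12.3% of those of Tlr6 occurred in another gene, and both had a fractional expected count in all 23 libraries. Tlr3 had one in 9 libraries, and the other members in none. The longest identical run of the pair is printed because counts from it rest on how the authors' counting divided the reads. It lies in coding sequence at chr5:64925537-64925765 in Tlr1 and chr5:64953828-64954056 in Tlr6, is 229 bases long, and is written 5′ to 3′ in the genes' direction.
Tlr1 and Tlr6: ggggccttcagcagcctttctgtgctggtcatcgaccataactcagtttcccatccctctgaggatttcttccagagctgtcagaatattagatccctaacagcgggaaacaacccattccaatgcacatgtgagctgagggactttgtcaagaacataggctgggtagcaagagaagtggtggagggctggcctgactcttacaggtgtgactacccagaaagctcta

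Tlr6 was lower in old repopulated than in young libraries and Tlr1 was not called in any comparison, both with this limit on their counts. Tlr6 had 34.2 to 46.9 CPM in young (median 43.6), 35.8, 41.7 and 39.3 in young repopulated, 41.9, 37.0, 31.8, 38.6 and 30.7 in old and 25.2 to 41.5 CPM in old repopulated libraries (median 33.9). The change of -0.30 ± 0.10 (log2, SE; edgeR adjusted p 0.0415) was lost in 12 of 23 fits without 1 library, at -0.25 to -0.30 with edgeR adjusted p of 0.0522 to 0.0976. Those 12 left out young replicates 2, 4, 5, 6 or 7, young repopulated replicates 2 or 3, old replicate 2, or old repopulated replicates 2, 6, 7 or 8. With only both groups in the fit its edgeR adjusted p was 0.0697. The change was -0.09 (edgeR adjusted p 0.856) within library numbers 1 to 11 and -0.57 (edgeR adjusted p 0.00132) within 12 to 24, and the difference between these runs was -0.48 ± 0.17 (log2, SE), with an unadjusted p of 0.00948 and an edgeR adjusted p of 0.111. The rank correlation of Tlr6 was 0.87 with microglia, 0.78 with astrocyte, 0.62 with neuron and 0.56 with B cell markers. With border-associated macrophage, monocyte and neutrophil, dendritic cell and oligodendrocyte markers it was -0.82, -0.79, -0.79 and -0.66. With T and NK cell and endothelium markers it was -0.23 and -0.04. The genes ranked most like Tlr6 were Il6st (0.91), Rasgrp3 (0.91) and Cx3cr1 (0.91), the fractalkine receptor that is itself a microglia marker. Tlr1 had 70.5 to 90.3 CPM in young, 80.2, 69.6 and 78.6 in young repopulated, 88.4, 76.8, 105, 79.4 and 90.2 in old and 63.3 to 88.7 in old repopulated libraries. The old repopulated libraries differed from old ones by -0.25 ± 0.09 (log2, SE), with an unadjusted p of 0.0133 and an edgeR adjusted p of 0.294. The genes ranked most like Tlr1 were Smg1 (0.74), Suco (0.71) and Ddx6 (0.68).

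Tlr4, the lipopolysaccharide receptor (ENSMUSG00000039005.13, chromosome 4, 66827584 to 66930284, plus strand), was higher in each young repopulated library (84.4, 80.9 and 86.3 CPM) than in any young one (26.9 to 70.5 CPM, median 57.7). The old libraries had 63.9, 59.0, 66.7, 64.9 and 52.5 CPM and the old repopulated ones 59.9 to 87.1 (median 67.9). The difference of 0.58 ± 0.18 (log2, SE) between young repopulated and young libraries had an edgeR adjusted p of 0.109. Without young replicate 3, the library at 26.9 CPM, it was 0.46 and called (edgeR adjusted p 0.0404), and within library numbers 12 to 24, which lack that library, it was 0.52 (edgeR adjusted p 0.00693). Young replicate 3 had a count for 16437 genes, against 18764 to 22144 in the other young libraries, and the part of this was not tested. In old repopulated versus old libraries the difference was 0.20 ± 0.15 (SE, edgeR adjusted p 0.732). The genes ranked most like Tlr4 were the chemokine Ccl5 (0.76), Slc11a1 (0.75) and Rps9 (0.75).

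Tlr5, the flagellin receptor (ENSMUSG00000079164.8, chromosome 1, 182954788 to 182976044, plus strand), was low throughout. It had 2.76 to 6.55 CPM in young libraries (median 4.89), 3.82, 4.75 and 3.93 in young repopulated, 4.77, 7.29, 22.4, 6.18 and 9.91 in old and 1.83 to 16.9 in old repopulated libraries (median 6.61). Old and young libraries differed by 1.16 ± 0.41 (log2, SE; edgeR adjusted p 0.15), which was 0.64 without old replicate 3, the library at 22.4 CPM. The difference was 0.31 (edgeR adjusted p 1) within library numbers 1 to 11 and 1.59 (edgeR adjusted p 0.0128) within 12 to 24, and these did not differ past the threshold (1.27 ± 0.66, log2, SE; edgeR adjusted p 0.562). The genes ranked most like Tlr5 were Flot1 (0.89), Met (0.87) and Sf3b6 (0.86). The rank correlation of Tlr5 was 0.74 with monocyte and neutrophil, 0.66 with dendritic cell and 0.56 with border-associated macrophage markers. With microglia, neuron and astrocyte markers it was -0.65, -0.55 and -0.44, and with oligodendrocyte markers 0.54. Old replicate 3 had 2250 CPM of monocyte and neutrophil markers, and the part of these cells in the Tlr5 values was not tested. Tlr11, the other receptor outside the 10, had 0 to 1.22 CPM over all libraries.

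Counted over the family, the comparisons differed in how many receptors were called. In old versus young 1 of 10 was called, Tlr8, where 2.83% of all genes were, and the median change of the 10 was 0.09 (log2) beside -0.01 over all genes. In young repopulated versus young 2 of 10 were called, Tlr8 and Tlr13, beside 1.34% of genes. Between old repopulated and young libraries 4 of 10 were called, Tlr8 and Tlr13 higher and Tlr3 and Tlr6 lower, beside 15.2% of genes, with a median of -0.13 beside -0.02 over all genes. These 2 groups differ in both age and repopulation, whose parts cannot be told apart in this comparison. By edgeR 0 of 10 were called in old repopulated versus old libraries, beside 0.278% of genes. There 1 receptor had an unadjusted p under 0.05 (Tlr1), beside 1941 of 18720 genes. DESeq2 called 0 in this comparison, and quality-weighted voom 1 (Tlr3). For old repopulated versus young repopulated libraries, and for the interaction, edgeR called 0 of 10 receptors and 0% of genes. In each 2 receptors had an unadjusted p under 0.05, Tlr3 and Tlr9 in the former and Tlr8 and Tlr13 in the latter. Over all genes 2183 and 1542 of 18720 had such a p. For both DESeq2 called 0, and quality-weighted voom called 4 receptors in the former (Tlr3, Tlr4, Tlr7 and Tlr9) and 0 in the latter. The shares of all genes that DESeq2 and voom called are not given here, so their counts cannot be set beside the edgeR shares. The comparisons with young libraries share those libraries, as do those with old repopulated ones.

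**Figure D5:**
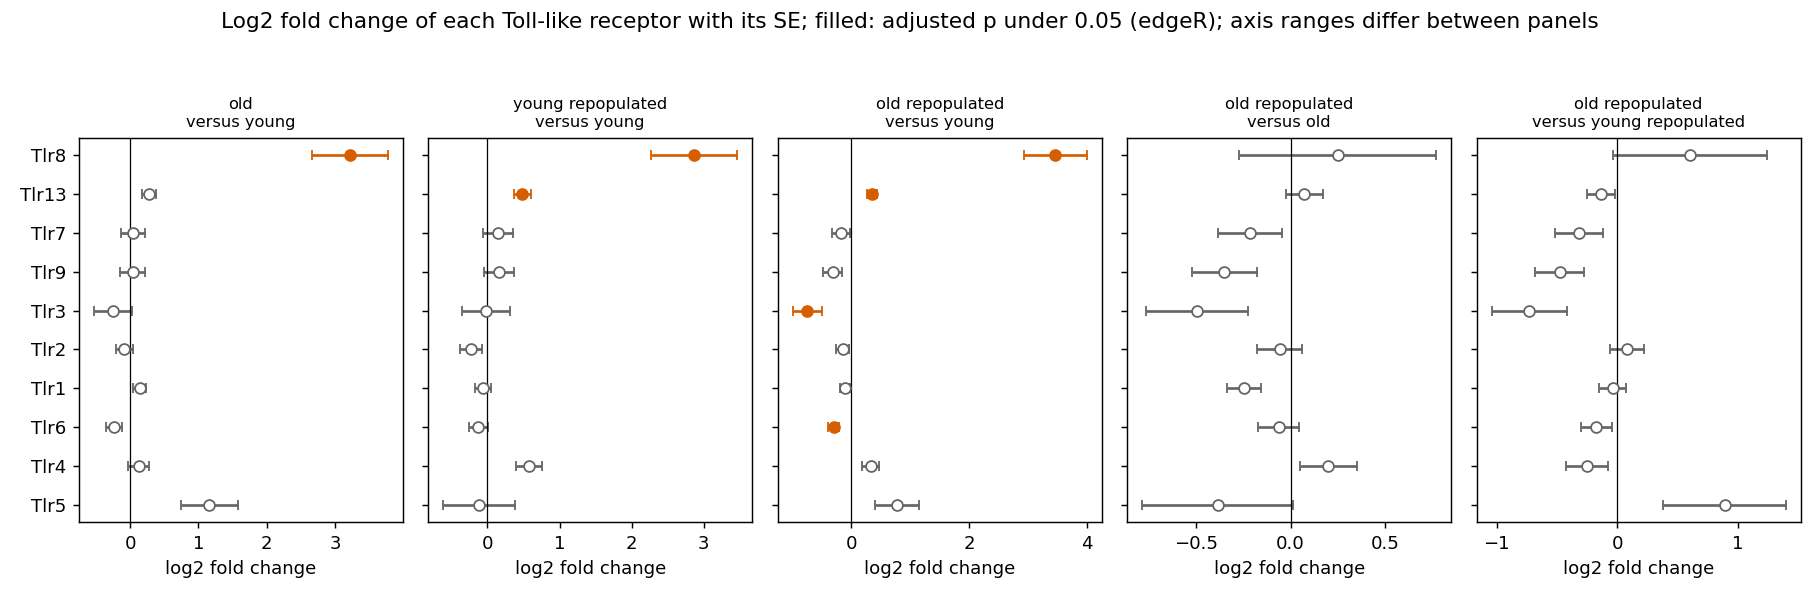
Log2 fold change of each receptor with its SE in 5 comparisons, with filled points for an edgeR adjusted p under 0.05; the axis ranges differ between panels. Tlr8 is filled in the 3 comparisons with young libraries, Tlr13 in both repopulated groups versus young, and no receptor in the last 2 panels.

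The groups did not overlap for 1 receptor in old versus young (Tlr8, where 2.21% of genes did not), for 3 in young repopulated versus young (Tlr4, Tlr8 and Tlr13, beside 12.1% of genes) and for 1 in old repopulated versus young (Tlr13, beside 2.24%). For 0 of 10 receptors were the groups apart in old repopulated versus old or versus young repopulated libraries, where 0.737% and 2.26% of genes were.

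Within library numbers 12 to 24 more receptors were called in every comparison, as were more genes. They were Tlr5, Tlr6 and Tlr8 in old versus young (15.7% of genes), Tlr4, Tlr8 and Tlr13 in young repopulated versus young (9.30%), and Tlr3, Tlr7 and Tlr9 in old repopulated versus old (12.7%). For old repopulated versus young they were Tlr3, Tlr5, Tlr6, Tlr7, Tlr8 and Tlr9 (41.1%), in old repopulated versus young repopulated libraries Tlr3, Tlr4, Tlr5, Tlr6, Tlr7 and Tlr9 (36.3%), and for the interaction Tlr3, Tlr7 and Tlr8 (8.87%). Within numbers 1 to 11, edgeR called 0 of 10 receptors in old versus young (0.00533% of genes), in old repopulated versus young (0.0107%) and in old repopulated versus old (0%), with 1 (Tlr8), 2 (Tlr8 and Tlr13) and 0 receptors at an unadjusted p under 0.05. Over all genes 542, 2067 and 454 of 18746 had such a p, in the same order. For repopulation in old mice the values in 12 to 24 were -1.17 for Tlr3, -0.65 for Tlr7 and -0.78 for Tlr9 (log2, edgeR adjusted p 0.0101, 0.00975 and 0.0252), and in 1 to 11 they were -0.24, -0.14 and -0.05 (log2, edgeR adjusted p 1 for each).

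The rest of the pathway was read from lists chosen with results of these data known. Of the 34 list calls followed through the alternatives, which were up to 3 with the largest change per list and comparison, 30 could be fitted within library numbers 1 to 11, where all 30 kept their sign and missed the threshold. Most of the list calls below are from old repopulated versus young libraries, which differ in both age and repopulation. Of 7 co-receptors and ligand-delivery genes, old repopulated versus young libraries had 2 higher and 2 lower, beside the 15.2% of all genes. The fatty acid and lipoprotein receptor Cd36 was at 106 ± 84.2 (SD, n = 8) and 14.3 ± 5.64 CPM (SD, n = 7), or 2.90 ± 0.53 higher (log2, SE; edgeR adjusted p 0.00146). Clec7a, the beta-glucan receptor dectin-1, changed by 1.09 ± 0.13 (SE, edgeR adjusted p 3.9e-05), and by 1.34 ± 0.16 (SE, edgeR adjusted p 0.000112) in young repopulated versus young libraries. Ly86 fell by 0.76 (log2, edgeR adjusted p 0.00713), and its partner Cd180, a Tlr4-like receptor, by 0.57 (log2, edgeR adjusted p 0.0193). Clec7a was also called in old versus young (0.63, edgeR adjusted p 0.0176), a call lost in 2 of 23 fits without 1 library (edgeR adjusted p 0.0656 and 0.0682, without old replicates 3 and 5), and the calls of Cd36 and Ly86 and the other calls of Clec7a held in all 23. The call of Cd180 was not followed through these fits.

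Of 10 genes for folding and transport of the receptors, 3 were lower in old repopulated than in young libraries, where 15.2% of all genes were called. Among them was Ctsl, a lysosomal protease that trims endosomal Toll-like receptors, at 1364 ± 523 (SD, n = 8) against 2896 ± 353 CPM (SD, n = 7). Its change was -1.09 ± 0.20 (log2, SE; edgeR adjusted p 0.00135). In young repopulated versus young it was -1.15 ± 0.28 (SE, edgeR adjusted p 0.0402), a call lost in 10 of 23 fits. Lgmn, another such protease, and Slc15a4, an endosomal transporter needed by Tlr7 and Tlr9, changed by -0.31 and -0.32 (edgeR adjusted p 0.0239 and 0.0309), calls lost in 3 and 7 fits. Of 6 TIR adaptors 1 was called in the same comparison, Ticam1, by -0.31 ± 0.09 (log2, SE; edgeR adjusted p 0.0232), lost without young replicates 2 and 5 (edgeR adjusted p 0.0712 and 0.0611) and at -0.23 (edgeR adjusted p 0.128) within library numbers 12 to 24.

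Of 19 kinases and ubiquitin ligases, 2 were called in old repopulated versus young libraries, a share below the 15.2% of all genes. Irak4, the first kinase after Myd88, was higher by 0.39 ± 0.11 (log2, SE; edgeR adjusted p 0.0161), a call that held in all 23 fits, and Map3k8 was lower by 0.49 (edgeR adjusted p 0.0483), lost in 18. In old versus young Ikbkb was higher (0.37, edgeR adjusted p 0.0454), lost in 13 fits. Of 12 transcription factors 2 were lower in old repopulated than in young libraries, Rela (-0.38, edgeR adjusted p 0.0243) and Rel (-0.37, edgeR adjusted p 0.0263), both subunits of NF-kappa B, with calls lost in 5 and 2 fits and a share near the 15.2% of all genes. Rel was at -0.11 (edgeR adjusted p 0.517) within library numbers 12 to 24. Of 17 negative regulators 3 were higher and 1 lower in old repopulated than in young libraries, beside the same 15.2%. Irak3, an inhibitory relative of the Irak kinases, was at 14.7 ± 7.23 (SD, n = 8) and 6.61 ± 0.88 CPM (SD, n = 7), or 1.16 ± 0.29 higher (log2, SE; edgeR adjusted p 0.0113). Tank changed by 0.48 (edgeR adjusted p 0.0285), lost in 5 fits, and the NF-kappa B inhibitor Nfkbib by -0.47 (edgeR adjusted p 0.012), which was -0.17 (edgeR adjusted p 0.252) within library numbers 12 to 24. Nfkbib was also lower in young repopulated libraries (-0.67, edgeR adjusted p 0.0476), lost in 18 fits.

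Of 24 measured genes that Toll-like receptor signalling can induce, 6 were higher and 5 lower in old repopulated than in young libraries, where 15.2% of all genes were called, with a median change of 0.15 (log2) beside -0.02 over all genes. Il10, an anti-inflammatory cytokine, was at 6.39 ± 10.9 (SD, n = 8) and 0.87 ± 0.41 CPM (SD, n = 7), with a change of 2.87 ± 0.75 (SE, edgeR adjusted p 0.0136) that was lost in 1 fit, at 1.59 (edgeR adjusted p 0.0655) without old repopulated replicate 6. The neutrophil chemokine Cxcl1 rose by 2.18 ± 0.59 (SE, edgeR adjusted p 0.0155), and the co-stimulatory receptor Cd40 by 1.52 ± 0.49 (SE, edgeR adjusted p 0.0374), lost in 9 fits. The lower genes were the chemokines Ccl3 (-0.93), Ccl4 (-0.98) and Cxcl10 (-0.83), the co-stimulatory ligand Cd86 (-0.44) and the interferon-inducible GTPase Gbp5 (-0.78), all on the log2 scale with edgeR adjusted p of 0.00155 to 0.0271. The call of Cxcl10 was lost in 1 of 23 fits without 1 library, and those of the other lower genes were not followed through these fits. In young repopulated versus young 1 of 24 was called, beside 1.34% of all genes. This was the chemokine Ccl5, by 2.52 ± 0.49 (SE, edgeR adjusted p 0.0117), lost without young repopulated replicates 1 and 3 (edgeR adjusted p 0.0535 and 0.092). In old versus young edgeR called 0 of 24, beside 2.83% of all genes. DESeq2 called 2 and quality-weighted voom 4, with their shares of all genes not given here. By edgeR 4 had an unadjusted p under 0.05, beside 2870 of 18720 genes.

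Of 13 measured pattern receptors of other families, 3 were higher and 3 lower in old repopulated than in young libraries, beside 15.2% of all genes called. The lectins Clec4d and Clec4e, which bind mycobacterial lipids and sit together on myeloid cells, changed by 4.55 ± 0.84 and 3.73 ± 0.86 (log2, SE), with edgeR adjusted p of 0.00146 and 0.00649. The scavenger receptor Msr1 changed by 1.51 (edgeR adjusted p 0.033), lost in 6 fits. The lower genes were the cytosolic DNA sensors Mb21d1 (-0.26, edgeR adjusted p 0.0224) and Aim2 (-0.37, edgeR adjusted p 0.0281) and the peptidoglycan sensor Nod1 (-0.54, edgeR adjusted p 0.0227). The calls of Mb21d1, Aim2 and Nod1 were not followed through the fits without 1 library. In old versus young Clec4d was called at 4.15 ± 0.86 (SE, edgeR adjusted p 0.0106), lost in 1 fit (edgeR adjusted p 0.0557, without old replicate 3). The monocyte and neutrophil marker sums had medians of 43.9 CPM in young, 831 in old and 572 in old repopulated libraries, and their part in these values was not tested.

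Of 16 interferon response genes, which signals through Tlr3, Tlr7 and Tlr9 among others can raise, 16 had a higher fitted level in old than in young libraries, with a median difference of 0.77 (log2) beside -0.01 over all genes. EdgeR called 0 of them, beside 2.83% of all genes. The calls were 4 by DESeq2 and 11 by quality-weighted voom, whose shares of all genes are not given here. By edgeR 13 had an unadjusted p under 0.05, beside 2870 of 18720 genes. Within library numbers 1 to 11 this held for 0 of 16, beside 542 of 18746 genes. In old repopulated versus old libraries 16 of 16 had a lower fitted level, with a median of -1.10 beside 0.00, and 3 were called, beside 0.278% of all genes. In this comparison 15 had an unadjusted p under 0.05 by edgeR, beside 1941 of 18720 genes. Within library numbers 1 to 11 this held for 2 of 16, beside 454 of 18746 genes. Stat2, a transcription factor of the interferon receptor, was at 72.1 ± 13.9 (SD, n = 8) and 151 ± 56.1 CPM (SD, n = 5), with a log2 change of -1.06 ± 0.18 (SE, edgeR adjusted p 0.0165). Ifit2 and Ifit3, antiviral effectors, changed by -1.46 ± 0.29 and -1.34 ± 0.28 (SE, edgeR adjusted p 0.0327 and 0.0394). The calls of Stat2, Ifit2 and Ifit3 were lost in 2, 5 and 13 of 23 fits without 1 library, that of Stat2 without old replicate 4 or 5 (edgeR adjusted p 0.0551 and 0.0707). Ddx58, the cytosolic RNA sensor RIG-I and one of the other pattern receptors, changed by -0.91 ± 0.20 (SE, edgeR adjusted p 0.049), lost in 19. With only both groups in the fit all 4 calls were lost, with edgeR adjusted p of 0.169 for Stat2, 0.269 for Ifit2 and 0.313 for Ifit3 and Ddx58. By edgeR no receptor was called in this comparison.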

How the data were processed

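Per the submitters' processing notes, reads were handled with FastQC 0.11.5, STAR, RSEM and limma on GRCm38, and the annotation and use of strand are not given in the sources used here. Poly(A) RNA (2.4 to 147 ng) was made into stranded libraries read as single reads of 50 nt, per the labels' protocols. The authors deposited 1 table per library, with RSEM expected counts, which were rounded to whole numbers and tested here (87.26% were whole within 1e-06), and TPM, used for levels per length. The deposited effective lengths served 1 check of that order.

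Counts were fitted in R 4.3.3 with edgeR 4.0.16 (filterByExpr, 18720 genes; TMM; 1 coefficient per group over 23 libraries; glmQLFit and glmQLFTest, two-sided), with Benjamini-Hochberg adjustment over all genes and a gene called under 0.05. In all 6 contrasts were fitted, 5 comparisons and the interaction. SE is the absolute log2 change over the square root of F, and intervals are 95% normal ones. Alternatives were scaling by RLE or by upper quartiles, a filter at a mean of 5 CPM or none, DESeq2 (1.42.0), quality-weighted voom (voomWithQualityWeights, limma 3.58.1), only the groups compared, library number (1 to 11 against 12 to 24) as a term, fits within each run, and leaving out each library. The fit was tested on simulated counts. Likeness was Spearman's rank correlation of log2 CPM (prior count 2) with genes of mean CPM of at least 5. Named were all members, up to 3 called genes with the largest change per list and comparison, and the 3 genes most like each member. Further calls named in old repopulated versus young libraries were Cd180, Ccl3, Ccl4, Cd86, Gbp5, Mb21d1, Aim2 and Nod1. Members and lists were chosen with earlier results of these data known. Coordinates are from GENCODE M21 (GRCm38) where the identifier's version matched (9 of 10). Young, young repopulated, old and old repopulated libraries held 43.93 to 47.85, 44.9 to 47.77, 43.66 to 50.98 and 45.73 to 58.19 M counts.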

Additional observations from a re-analysis of the deposited data

Results flagged for a closer look

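In 2 of the 30 sets of libraries of 1 receptor in 1 group that were tested for a far library (young, old and old repopulated groups), 1 library lay apart from the rest, where chance alone flags about 1 in 20. Tlr4 in young replicate 3 was at 26.9 CPM, with the next lowest young library at 53.6 CPM. Tlr13 in old repopulated replicate 5 was at 512 CPM, with the next highest at 440.07 CPM. The difference between old repopulated and young libraries in Tlr7 was lower in library numbers 12 to 24 than in 1 to 11 by 0.84 on the log2 scale (-0.84 ± 0.19, SE; edgeR adjusted p 0.0391), with 3 of 3 old repopulated libraries below all 4 young ones in the higher numbers and 5 of 5 above 2 of 3 young ones in the lower numbers.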

How the results depend on the processing

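No paired analysis was possible because the library numbers in the sample titles are not shared between groups, and the replicate numbers within a group only follow the order of the samples. Without 1 library at a time, the number of receptors called was 1 in old versus young, 0 to 2 in young repopulated versus young, 2 to 4 in old repopulated versus young, and 0 for the interaction and for old repopulated versus old or young repopulated libraries. With voom and sample quality weights, whose share of all genes called is not given here, it was 3 in old versus young, 1 in old repopulated versus old and 4 in old repopulated versus young repopulated. Without a filter it was 1 in young repopulated versus young and 2 in old repopulated versus young, and with only the groups compared 2 in the latter. The shares of all genes called without 1 library, without a filter or with only the groups compared are not given here. Within library numbers 12 to 24 the number of receptors called was 3 in old versus young (15.7% of all genes) and 3 in old repopulated versus old (12.7%). There it was also 6 in old repopulated versus young repopulated (36.3%) and 3 for the interaction (8.87%). Within 1 to 11 it was 0 in old versus young (0.00533%) and in old repopulated versus young (0.0107%). The cause was not tested.

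None of the sign changes below concerns a call made over all libraries. In old versus young, Tlr2 turned to 0.0661 within numbers 1 to 11, Tlr4 to -0.00895 and Tlr7 to -0.0282 with voom, Tlr7 to -0.0854 within 12 to 24, and Tlr9 to -0.0188 with upper-quartile factors, -0.134 with voom and -0.0144 within 12 to 24. In young repopulated versus young, Tlr3 turned to 0.0381 with voom, 0.139 with library number as a term and 0.00972 within 12 to 24. In old repopulated versus old, Tlr2 turned to 0.0296 within 12 to 24. In old repopulated versus young, Tlr5 turned to -0.0292, Tlr7 to 0.101 and Tlr9 to 0.0612 within 1 to 11. Within 12 to 24 the same receptors were called in this comparison, at 1.58, -0.74 and -0.80 (log2) for Tlr5, Tlr7 and Tlr9. In old repopulated versus young repopulated, Tlr1 turned to 0.0402 with library number as a term. For the interaction, Tlr5 turned to 0.256 and Tlr6 to -0.0209 with library number as a term, and Tlr6 to -0.0281 within 12 to 24. Without 1 library, signs turned in old versus young for Tlr7 (-0.0469 to 0.104) and Tlr9 (-0.0481 to 0.136), in young repopulated versus young for Tlr1 (-0.105 to 0.0313) and Tlr3 (-0.165 to 0.124), in old repopulated versus old for Tlr13 (-0.00276 to 0.183), Tlr2 (-0.14 to 0.00345), Tlr5 (-0.654 to 0.134) and Tlr8 (-0.0241 to 0.882), in old repopulated versus young repopulated for Tlr1 (-0.117 to 0.000973), and for the interaction for Tlr5 (-0.537 to 0.251). The rank order of levels per length over all libraries was the same from CPM per kilobase of effective length, and within groups it differed for Tlr3 and Tlr9 in old libraries.

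The lowest expected count of a member in any library was 101 (Tlr5, old repopulated replicate 4), and the number of libraries, 3 in young repopulated, limits the precision.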
